A study of Homo sapiens with 12 samples.

Results

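The genes described here are 34 human genes of 2 overlapping kinds, genes that the EWS-FLI1 fusion protein is known to repress and genes of the mesenchymal programme and its extracellular matrix. They were fixed by symbol, with earlier results of these data known, and make up 34 of the 19775 genes that the array annotation could name. Each gene was read from its brightest probe set, the one with the highest mean over all 12 arrays, and 28 of the 34 had more than 1 set. The cells were TC71 and TC32, established human lines of Ewing sarcoma that both carry the EWSR1-FLI1 fusion gene. Dishes of each line recovered overnight after plating and then received, for 6 h, either mithramycin at 100 nM or solvent alone. Mithramycin is a natural product used against tumours that sits in the minor groove of DNA where G and C are frequent. The 4 groups were therefore TC71 with mithramycin, TC71 with solvent (control), TC32 with mithramycin and TC32 with solvent (control), with 3 biological replicates in each and 1 array per replicate. All 4 groups carry the fusion, so no group lacks it, and each tumour is represented by 1 cell line. RNA came from whole dishes, so fewer cells that express a gene and less of its RNA per cell cannot be told apart.

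Ewing sarcoma cells resemble primitive mesenchymal cells that carry an aberrant ETS transcription factor. EWS-FLI1 activates some genes and represses others, and loss of the fusion is known to raise many mesenchymal and matrix genes in Ewing lines. TGFBR2, a receptor of TGF-beta, IGFBP3, a secreted binder of insulin-like growth factors, and DKK1, a secreted inhibitor of Wnt signalling, are textbook members of the repressed class. The matrix genes encode fibrils such as collagens and fibronectin, the matricellular proteins that modulate cell contact, and the enzymes that crosslink or cut the fibrils, while SNAI2, TWIST1 and PRRX1 encode transcription factors of mesenchymal cells.

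Because of that preference for G and C, the sequence just before the start of 4 genes is shown. They are 3 of the 4 genes that fell at least 2-fold in TC32, and fibronectin as an abundant gene that was not called there. TWIST1, the other gene that fell that far, had no promoter sequence available. The 250 bases before the start come from RefSeq on GRCh38.p14, written 5′ to 3′ along the gene. Capitals mark the letters GGGCGG, their complement CCGCCC, and TATAAA. DKK1 lies on the plus strand and its window is chr10:52314031-52314280, TGFBR2 lies on the plus strand at chr3:30606106-30606355, IGFBP3 on the minus strand at chr7:45921273-45921522, and FN1 on the minus strand at chr2:215436069-215436318.
DKK1: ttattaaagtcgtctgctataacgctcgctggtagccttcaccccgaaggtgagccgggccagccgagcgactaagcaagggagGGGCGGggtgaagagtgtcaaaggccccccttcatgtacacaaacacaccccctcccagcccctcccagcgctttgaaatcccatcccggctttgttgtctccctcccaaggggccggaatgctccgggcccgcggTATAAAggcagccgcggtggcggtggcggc
TGFBR2: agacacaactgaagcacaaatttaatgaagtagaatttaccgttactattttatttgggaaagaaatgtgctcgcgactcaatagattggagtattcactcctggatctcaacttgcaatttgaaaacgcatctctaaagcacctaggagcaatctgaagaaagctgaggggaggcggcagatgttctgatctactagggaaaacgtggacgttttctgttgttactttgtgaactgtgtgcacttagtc
IGFBP3: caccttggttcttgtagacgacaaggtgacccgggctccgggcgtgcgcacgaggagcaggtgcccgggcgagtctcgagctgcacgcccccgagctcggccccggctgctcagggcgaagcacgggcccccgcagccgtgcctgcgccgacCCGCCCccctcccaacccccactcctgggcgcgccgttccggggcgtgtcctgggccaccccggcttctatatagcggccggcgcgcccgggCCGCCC
FN1: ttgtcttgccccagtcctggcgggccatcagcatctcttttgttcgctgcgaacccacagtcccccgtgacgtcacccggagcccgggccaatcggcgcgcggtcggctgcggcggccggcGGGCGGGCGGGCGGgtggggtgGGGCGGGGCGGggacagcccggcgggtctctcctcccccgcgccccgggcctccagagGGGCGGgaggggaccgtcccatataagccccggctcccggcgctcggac

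The TGFBR2 window had 40.8% G and C and no match to GGGCGG on either strand, while that of DKK1 had 62.8% and 1 match. IGFBP3 had 76.0% with 2 matches and FN1 had 76.4% with 6, overlapping copies counted. The other genes called lower in TC32 that had a window were CALD1 (50.4%, 1 match), PRRX1 (50.8%, 0), TGFBI (72.8%, 3) and CAV2 (83.2%, 6). GGGCGG stood in 15 of the 24 members with a promoter in the table (62.5%), against 56.3% of the 15384 promoters of genes tested. TATAAA stood in 3 of the 24 (12.5%), against 8.31% of all. GGAAGGAA, a repeat of the ETS core letters, stood in 1 member, TNC, against 3.01% of all, and TGANTCA in 1 member, POSTN, against 5.03%. Neither of the last 2 motifs stood in the 4 windows shown. Median G and C content was 60.2% over the 24 members, with a range of 36.4 to 83.2%, and 62.4% over all promoters. These letter matches describe the windows only. The start used by RefSeq may not be the start these cells use.

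The arrays of 1 group correlated at 0.9948 or higher over the probe sets, and array medians lay between 4.38 and 4.47 on the log2 scale. The number of arrays limits the precision of every value. The labelled cell type was checked against marker genes, and all 7 Ewing sarcoma markers measured (CD99, NKX2-2, STEAP1, PRKCB, FLI1, EWSR1, CCND1) averaged at least 6 in each group. The 6 epithelial, 5 blood and 5 endothelial markers were all under 6 in every group. Of 8 fibroblast markers, 4 were under 6 in all groups, against 50.9% of all genes tested. DCN, FAP, S100A4 and THY1 reached 6 in some or all groups, with S100A4 at 8.63 in TC71 with mithramycin. The FLI1 probe set averaged 8.10 with mithramycin and 8.37 with solvent in TC71 (log2 fold change -0.27 ± 0.10 SE, limma adjusted p = 0.0667), and 7.44 with mithramycin and 8.14 with solvent in TC32 (-0.70 ± 0.10, adjusted p = 1.71e-04). Whether that set reads the part of FLI1 within the fusion is not known here. TC71 control replicate 1 stood apart in the difference between the 3′ and 5′ beta-actin probe sets, a sign of RNA quality. That difference was 0.79, 0.86 and 0.99 on the TC71 mithramycin arrays and 2.0, 1.08 and 1.28 on the TC71 control arrays, against 0.51, 0.67 and 0.62 on the TC32 mithramycin arrays and 0.74, 0.67 and 0.73 on the TC32 control arrays. For the genes described here, the counts of calls in each comparison that involves the TC71 controls are given without that array too. Other such counts include it, among them those of the marker genes, the related lists, non-overlapping arrays and calls shared by both lines.

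The array signals of the 34 genes lay at very different levels. ANXA1, which encodes the membrane-binding protein annexin A1, averaged 13.03 in both TC32 groups, and POSTN, which encodes the matricellular protein periostin, stayed at or below 2.39 in every group. Genes under 6 in all 4 groups were treated as not expressed, and 12 of the 34 fell there, against 50.9% of all genes tested. They were LOX, CDKN1C, THBS1, COL1A2, COL6A3, POSTN, CD44, NNMT, LUM, PLAU, PRRX1 and FBN1. Just below the threshold lay FBN1, with a highest group mean of 5.56, and LUM at 5.15. Just above it lay COL5A1 at 6.18 and ITGA5 at 6.23. The threshold matters for the count, which was 10 genes at a threshold of 5 and 17 at 7. Of the other 22 genes, 9 reached 6 in all 4 groups and 13 in some. The 9 were COL1A1, COL3A1, FN1, SPARC, ANXA1, CAV2, VIM, ITGA5 and CALD1.

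**Figure D1:**
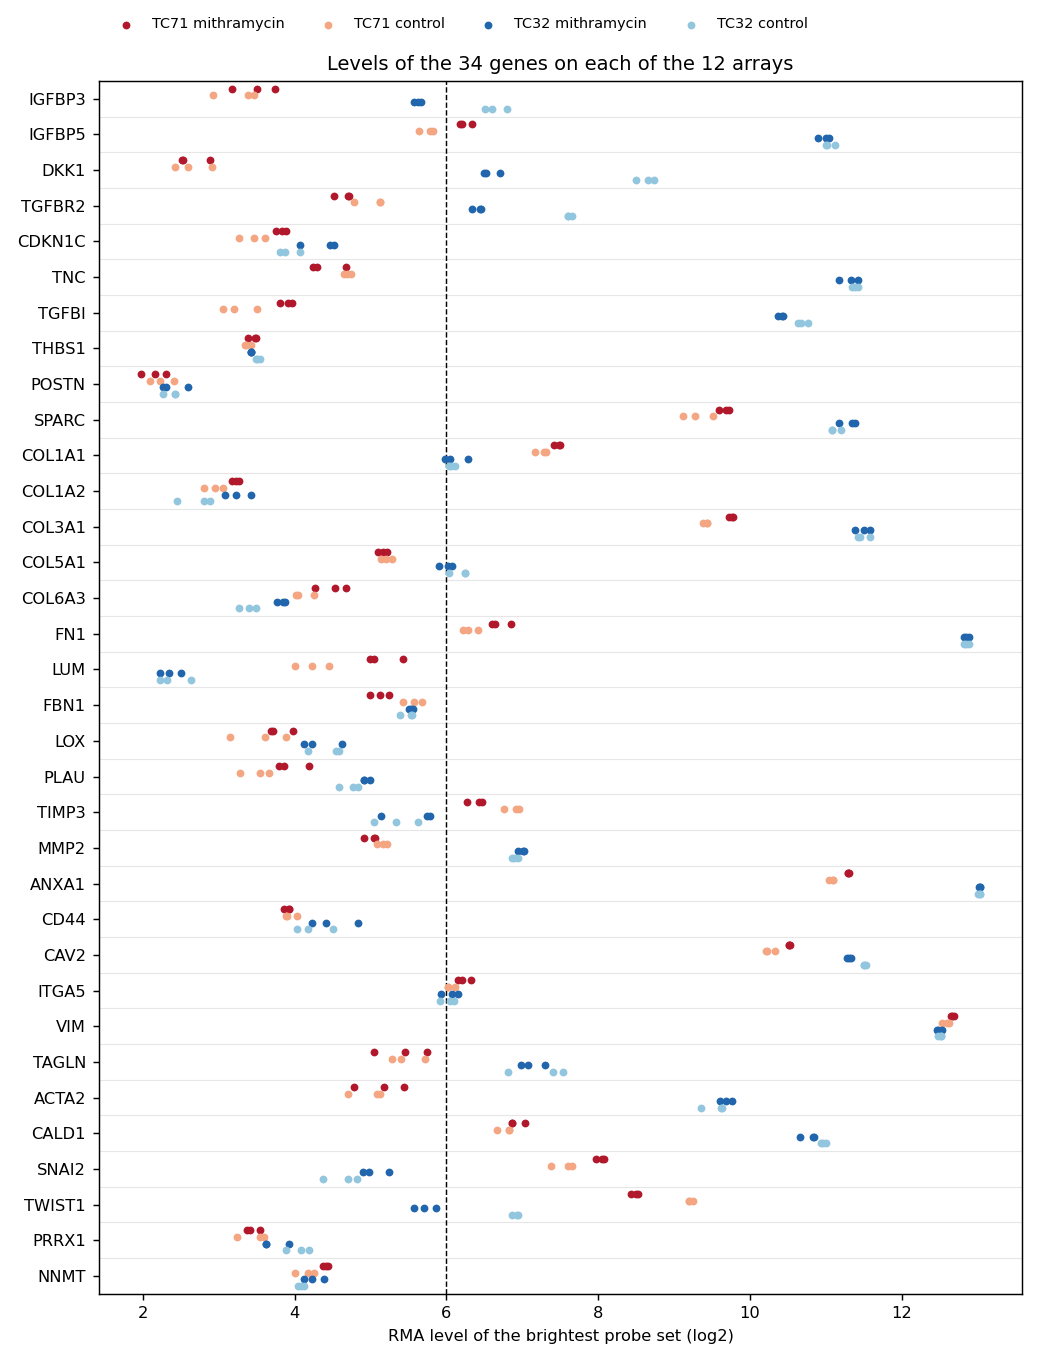
Log2 level of the brightest probe set of each of the 34 genes, grouped by role down the page, on the horizontal axis; each point is 1 array, coloured by group, and the dashed line marks 6. TGFBI, TNC, FN1, IGFBP5 and ACTA2 split by line far more than by treatment, while DKK1, TGFBR2, IGFBP3 and TWIST1 also split by treatment in TC32.

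The solvent controls of the 2 lines differed in most of these genes, and mostly in 1 direction. TC71 controls were lower than TC32 controls in 21 of the 34 genes and higher in 6, with 7 not called. A call here and below is an adjusted p under 0.05 by limma with Benjamini-Hochberg adjustment over all 19775 genes. Among all genes, 24.8% were called lower and 26.7% higher, 51.5% in all. The median difference of the 34 genes (TC71 control minus TC32 control) was -0.92 on the log2 scale, against -0.03 for all genes, and -0.54 with the mean of all probe sets. At least 2-fold lower in TC71 were 16 of them, against 5.65% of all genes, and at least 2-fold higher were 5, against 7.77%. All 3 TC71 controls lay below all 3 TC32 controls for 21 genes (29.3% of all genes) and above them for 7 (29.7%), against 59.0% of all genes apart in either direction. Without TC71 control replicate 1 the counts were 20 lower and 6 higher (23.1% and 25.7% of all genes). With arrays centred on housekeeping genes they were 22 lower and 6 higher (31% and 22% of all genes). All genes then had 41.5% of their calls higher, against 51.9% without that centring. These control arrays also enter the mithramycin comparisons below, so those are not independent of this one.

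The widest gaps were in matrix genes that TC32 expresses strongly. TGFBI, a matrix protein that TGF-beta induces, read 3.50, 3.05 and 3.20 in TC71 controls and 10.77, 10.63 and 10.67 in TC32 controls (log2 difference -7.44 ± 0.10 SE, n = 3 each, limma adjusted p = 3.91e-14). The tenascin gene TNC, a matricellular gene, averaged 4.70 ± 0.05 (SD) in TC71 controls and 11.39 ± 0.04 in TC32 controls, a log2 difference of -6.69 ± 0.10. FN1, fibronectin, read 6.42, 6.28 and 6.22 in TC71 controls and 12.89, 12.82 and 12.85 in TC32 controls, 93.4-fold lower in TC71. In TC32 controls all 3 genes averaged above 10, whereas in TC71 controls TGFBI and TNC lay under 6. Where a line lies under 6, as here and for several genes below, the difference is one of array values that depends on background there and may understate the difference in RNA. SPARC, a collagen-binding matricellular gene, was high in both lines and lower in TC71 (9.30 ± 0.20 in TC71 controls and 11.12 ± 0.07 in TC32 controls, log2 difference -1.82). COL3A1, the gene of type III collagen, was likewise high in both, at 9.42 ± 0.03 in TC71 controls and 11.48 ± 0.08 in TC32 controls.

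The secreted regulators and the receptor followed the same direction. DKK1 read 2.43, 2.60 and 2.91 in TC71 controls and 8.74, 8.66 and 8.50 in TC32 controls (log2 difference -5.99 ± 0.13 SE, limma adjusted p = 2.47e-12). IGFBP5, another binder of insulin-like growth factors, differed by -5.31 on the log2 scale and IGFBP3 by -3.38. TGFBR2 differed by -2.62, with 4.78, 5.13 and 5.12 in TC71 controls and 7.61, 7.66 and 7.61 in TC32 controls. The lines did not overlap for any of these 4 genes, and all 4 averaged under 6 in TC71 controls and above 6 in TC32 controls. Of the contractile and cytoskeletal genes, ACTA2 (smooth muscle actin), CALD1 (caldesmon) and TAGLN (transgelin) were lower in TC71 by -4.56 ± 0.16, -4.20 ± 0.07 and -1.78 ± 0.20. Other TAGLN sets differed by -1.59 and by -0.11, and the latter was not called (limma over all probe sets, adjusted p = 0.257). VIM, the intermediate filament gene of mesenchymal cells, was bright in both lines. Its brightest set averaged 12.59 ± 0.05 in TC71 controls and 12.51 ± 0.02 in TC32 controls. The difference had a 95% confidence interval of -0.03 to 0.19. The other VIM set averaged 4.17 in TC71 controls and 5.18 in TC32 controls. It was called lower in TC71 (-1.01, limma over all probe sets, adjusted p = 2.26e-06).

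Of the 3 transcription factors, 2 were higher in TC71. SNAI2, a zinc finger repressor of epithelial genes, read 7.38, 7.66 and 7.60 in TC71 controls and 4.38, 4.82 and 4.70 in TC32 controls (log2 difference 2.91 ± 0.12 SE, limma adjusted p = 5.64e-10). TWIST1, a helix-loop-helix factor of mesoderm, read 9.25, 9.20 and 9.20 in TC71 controls and 6.94, 6.93 and 6.87 in TC32 controls, 4.93-fold higher in TC71. The other genes called higher in TC71 were LUM (lumican, 1.83), TIMP3 (an inhibitor of metalloproteases, 1.55), COL1A1 (type I collagen, 1.19) and COL6A3 (type VI collagen, 0.72). LUM and COL6A3 were under 6 in both lines. Of 5 COL1A1 sets, 2 were called higher and 0 lower in TC71 controls. The second brightest COL1A1 set differed by -0.17 and was not called (limma over all probe sets, adjusted p = 0.0580). The third factor, PRRX1, was under 6 throughout and was called lower in TC71 (-0.60). Further genes called lower in TC71 were ANXA1 (-1.95), the gelatinase gene MMP2 (-1.75), the caveolin gene CAV2 (-1.26), the urokinase gene PLAU (-1.24), COL5A1 (-0.96), the crosslinking enzyme gene LOX (-0.89), the cell cycle inhibitor gene CDKN1C (-0.47) and the thrombospondin gene THBS1 (-0.13). THBS1 lost its call without TC71 control replicate 1, and with beta-actin in the fit LOX, CDKN1C and THBS1 lost theirs, which left 18 lower and 6 higher (18.4% and 21.9% of all genes). No call was made for CD44 (-0.30), POSTN (-0.12), COL1A2 (0.23), NNMT (0.06), FBN1 (0.07) and the integrin gene ITGA5 (0.04).

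**Figure D2:**
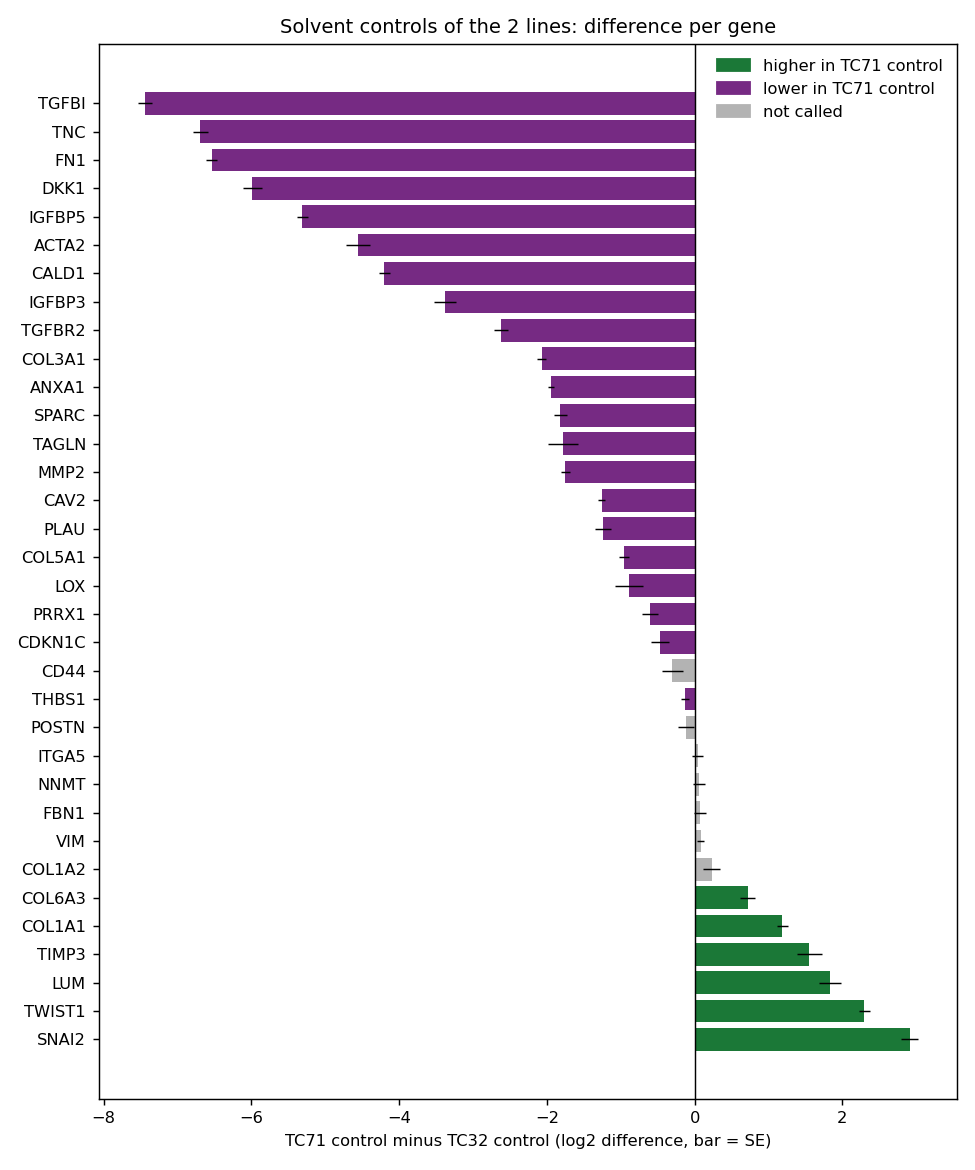
Log2 difference TC71 control minus TC32 control for each gene, ordered by size, with bars for the difference and whiskers for its standard error (3 arrays a group). The 21 purple bars reach -7.44 (TGFBI) and the 6 green bars reach 2.91 (SNAI2); grey bars were not called.

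With mithramycin, 13 of the 34 genes rose in TC71 and 5 fell, and none of these changes reached 2-fold. Among all genes, 19.4% were called higher and 16.1% lower in TC71, 35.5% in all, and 0.455% rose and 2.49% fell at least 2-fold. The 13 were IGFBP5, TGFBI, SPARC, COL3A1, COL6A3, FN1, LUM, PLAU, ANXA1, CAV2, SNAI2, CDKN1C and NNMT, and the 5 were TWIST1, TGFBR2, FBN1, TIMP3 and TNC. The median change was 0.19 on the log2 scale, against 0.07 for all genes. With the mean of all sets these medians were 0.12 and 0.07, with beta-actin in the fit 0.13 and 0.06, and without the _x_at and _s_at sets, which left 28 genes, 0.07 and 0.06. Of the 13 that rose, 7 reached 6 with mithramycin (IGFBP5, COL3A1, FN1, ANXA1, CAV2, SNAI2 and SPARC), and the other 6 rose at levels treated as not expressed. Without TC71 control replicate 1 the counts were 11 higher and 3 lower (16.2% and 15% of all genes). The median was then 0.13, against 0.07 for all genes. All 3 mithramycin arrays lay above all 3 controls for 18 genes (30.8% of all genes) and below them for 5 (20.6%), against 51.4% of all genes apart in either direction. Adding the beta-actin difference to the fit left 8 higher and 3 lower, and the shares of all genes fell too, to 10.9% higher and 12.4% lower. Arrays centred on hybridization controls gave 15 higher and 2 lower, where 22.4% and 10.8% of all genes were called.

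Among the expressed genes, the changes in TC71 were small and even between replicates. IGFBP5 read 6.34, 6.18 and 6.21 with mithramycin and 5.78, 5.82 and 5.64 with solvent in TC71, a 1.41-fold increase (0.50 ± 0.07 SE, n = 3 each, limma adjusted p = 1.26e-04). SNAI2 read 8.08, 7.97 and 8.05 with mithramycin and 7.38, 7.66 and 7.60 with solvent, a 1.40-fold increase (adjusted p = 0.00722). In both genes every mithramycin array lay above every control array. FN1 read 6.85, 6.60 and 6.64 with mithramycin and 6.42, 6.28 and 6.22 with solvent in TC71 (0.39 ± 0.07, adjusted p = 0.00131). COL3A1 averaged 9.75 ± 0.03 (SD) with mithramycin and 9.42 ± 0.03 with solvent (0.34 ± 0.06, adjusted p = 0.00117). Both matrix genes were without overlap between the groups. SPARC rose by 0.37 ± 0.09, CAV2 by 0.26 ± 0.05 and ANXA1 by 0.23 ± 0.04 on the log2 scale. The SPARC and SNAI2 calls were lost once the beta-actin difference was in the fit. The FN1 call was lost without the _x_at and _s_at sets, where another set was read (0.07), although 4 of its 7 sets rose. The CAV2 call was lost with the mean of all sets.

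The remaining increases in TC71 lay at low signal. LUM, a proteoglycan of collagen fibrils, read 5.43, 4.99 and 5.05 with mithramycin and 4.23, 4.45 and 4.0 with solvent, the highest increase of the 34 in TC71 (0.93 ± 0.15 SE, limma adjusted p = 3.56e-04). TGFBI read 3.96, 3.81 and 3.91 with mithramycin and 3.50, 3.05 and 3.20 with solvent (0.65 ± 0.10, adjusted p = 2.10e-04). PLAU rose by 0.46, COL6A3 by 0.39, CDKN1C by 0.37 and NNMT, a nicotinamide-methylating enzyme gene, by 0.27, all between 3.27 and 4.68 on every TC71 array. At such levels the sizes are rough. CDKN1C and NNMT lost their calls without TC71 control replicate 1.

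Of 8 fibroblast markers, 3 rose in TC71 (DCN, FAP and S100A4) and 4 in TC32 (DPT, FAP, S100A4 and THY1), and 0 fell, where 19.4% of all genes rose in TC71 and 25.6% in TC32. Their mean level per array was 5.69 to 5.75 with mithramycin and 5.47 to 5.56 with solvent in TC71, and 5.05 to 5.21 with mithramycin and 4.91 to 4.99 with solvent in TC32. PDGFRA, PDGFRB, PDPN and DPT stayed under 6 in all groups. The part of these markers in the rises of the matrix genes was not tested.

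TWIST1 had the largest decrease in TC71. It read 8.50, 8.43 and 8.53 with mithramycin and 9.25, 9.20 and 9.20 with solvent, 1.65-fold lower (-0.73 ± 0.07 SE, n = 3 each, limma adjusted p = 5.71e-06). TIMP3 read 6.27, 6.47 and 6.43 with mithramycin and 6.76, 6.92 and 6.96 with solvent (-0.49 ± 0.17, adjusted p = 0.0412). The groups did not overlap for either gene. TGFBR2 fell by 0.36, the fibrillin gene FBN1 by 0.44 and TNC by 0.29, all below 6 in TC71, and the TNC groups overlapped. TNC and TIMP3 lost their calls without TC71 control replicate 1.

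In TC32 more of the genes fell than rose, and 4 falls passed 2-fold. With mithramycin 8 of the 34 genes fell and 4 rose in TC32, against 19.4% of all genes called lower and 25.6% called higher, 45.0% in all. At least 2-fold lower were 4 genes, DKK1, TGFBR2, TWIST1 and IGFBP3, against 3.39% of all genes, and 0 were at least 2-fold higher, against 0.814%. All 3 mithramycin arrays lay below all 3 controls for 8 genes (20.8% of all genes) and above them for 4 (30.0%), against 50.8% of all genes apart in either direction. The median change of the 34 was 0.00, against 0.08 for all genes. Centring moved the split: arrays centred on housekeeping genes gave 9 lower and 3 higher (22.2% and 10.2% of all genes), and arrays centred on hybridization controls 9 lower and 1 higher (22.8% and 5.85%). The median of all genes was then -0.02 and -0.07. Of the 8 that fell, 7 were at or above 6 in TC32 controls, whereas all 4 that rose stayed below 6 with mithramycin. That holds for the brightest sets only. The brightest SPARC set was not called in TC32 (0.18). Its other set averaged 10.76 with mithramycin and 10.26 with solvent (0.51, limma over all probe sets, adjusted p = 2.94e-05). Of the 5 COL3A1 sets, 1 rose in TC32 (0.23, adjusted p = 0.0462) and 1 fell.

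DKK1 had the largest change of the 34 in either line. In TC32 it read 6.50, 6.71 and 6.52 with mithramycin and 8.74, 8.66 and 8.50 with solvent, 4.17-fold lower (-2.06 ± 0.13 SE, n = 3 each, limma adjusted p = 1.26e-07). TGFBR2 read 6.34, 6.46 and 6.44 with mithramycin and 7.61, 7.66 and 7.61 with solvent, 2.32-fold lower (-1.21 ± 0.09, adjusted p = 5.86e-07). TWIST1 read 5.71, 5.86 and 5.57 with mithramycin and 6.94, 6.93 and 6.87 with solvent, 2.30-fold lower (-1.20 ± 0.07, adjusted p = 5.78e-08). Every mithramycin array lay below every control array for these 3 genes. IGFBP3 read 5.62, 5.66 and 5.58 with mithramycin and 6.60, 6.80 and 6.51 with solvent, 2.03-fold lower (-1.02 ± 0.15, adjusted p = 1.80e-04). TWIST1 and IGFBP3 thereby passed below 6 with mithramycin, while DKK1 and TGFBR2 stayed above it.

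Among the matrix and membrane genes of TC32 the decreases were much smaller. TGFBI read 10.44, 10.37 and 10.43 with mithramycin and 10.77, 10.63 and 10.67 with solvent (-0.28 ± 0.10 SE, limma adjusted p = 0.0341). CAV2 averaged 11.31 ± 0.03 (SD) with mithramycin and 11.52 ± 0.01 with solvent (-0.21 ± 0.05, adjusted p = 0.00451), and CALD1 averaged 10.78 ± 0.10 with mithramycin and 10.97 ± 0.04 with solvent (-0.19 ± 0.07, adjusted p = 0.0477). PRRX1 fell by 0.33 at a level near 4. The CALD1, PRRX1 and TGFBI calls were each lost when some single arrays were left out, in 9, 4 and 5 of the 12 cases. The 4 genes that rose in TC32 were COL1A2 (0.53 ± 0.12), COL6A3 (0.44 ± 0.10), CDKN1C (0.43 ± 0.12) and SNAI2 (0.41 ± 0.12). Only COL1A2 kept its call with arrays centred on hybridization controls. COL1A2 averaged 3.25 with mithramycin and 2.71 with solvent, and its call was lost without the _x_at and _s_at sets. Its other sets showed -0.07 and 0.15 and were not called.

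The most abundant matrix genes of TC32 were not called. FN1 read 12.89, 12.85 and 12.82 with mithramycin and 12.89, 12.82 and 12.85 with solvent, a log2 change of 0.00 with a 95% confidence interval of -0.16 to 0.16. The estimates were 0.01 for COL3A1 (interval -0.13 to 0.14), -0.07 for TNC (-0.30 to 0.15) and -0.06 for IGFBP5 (-0.21 to 0.09). The intervals of ANXA1 (-0.09 to 0.10) and VIM (-0.12 to 0.09) were the narrowest of these. At the brightest sets a 2-fold change of the array value lay outside the interval for each of these 6 genes. That does not hold for every set. Dimmer sets of FN1 (-1.65), TNC (-1.46), VIM (-1.16), COL3A1 (-0.93) and ANXA1 (-0.46) were called lower in TC32, and 1 COL3A1 set was called higher (0.23). FN1, ANXA1 and VIM lie near the highest value of the TC32 arrays, 13.72, and whether signal is compressed there was not tested.

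**Figure D3:**
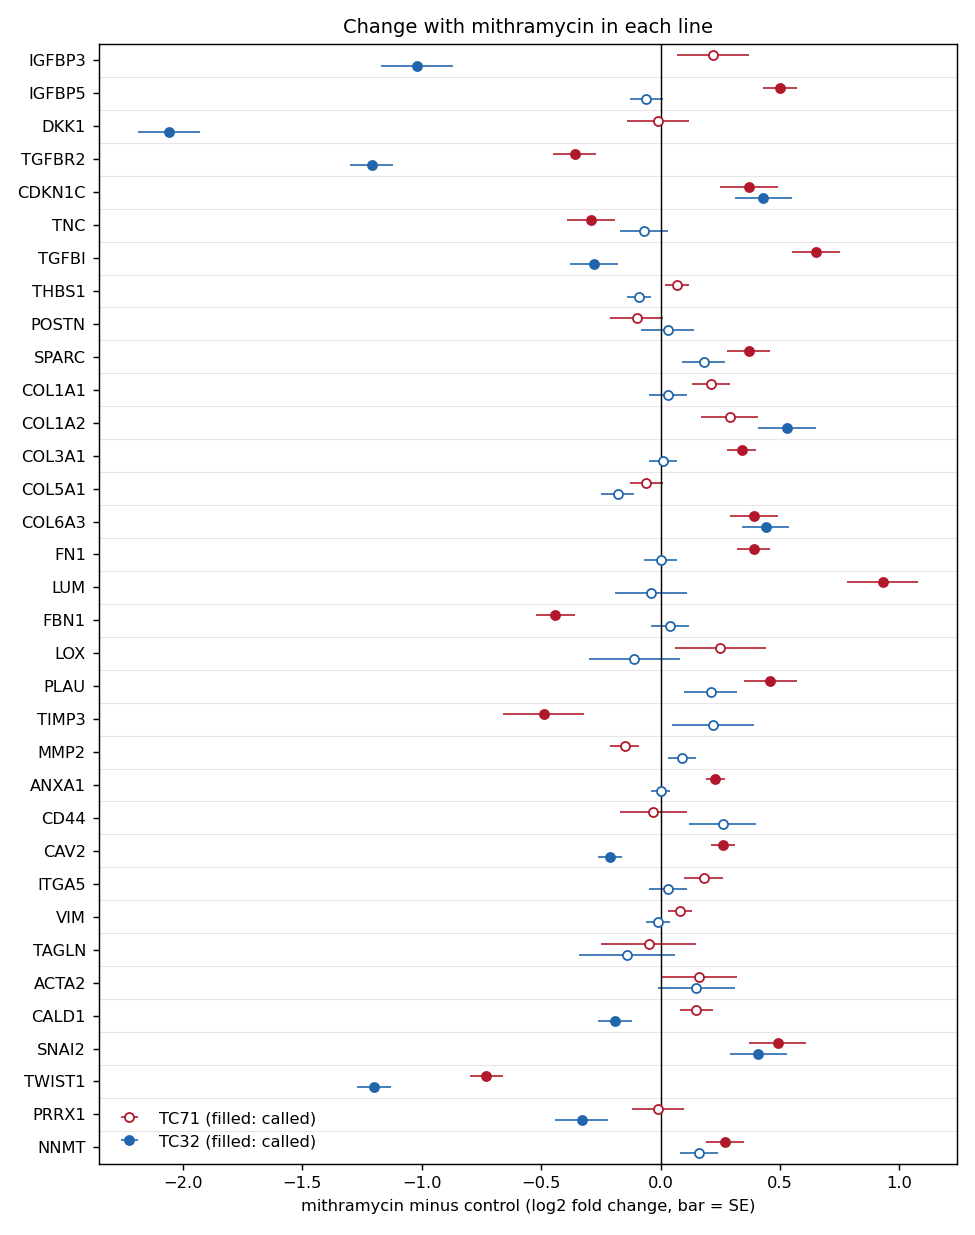
Log2 fold change, mithramycin minus control, of each gene in TC71 (red, upper point of each pair) and TC32 (blue, lower point), with standard errors from 3 arrays a group; filled points were called. In TC32 the genes DKK1, TGFBR2, TWIST1 and IGFBP3 lie beyond -1, while no gene does in TC71, where 13 filled points lie to the right of 0.

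The lines were then compared by a test of the difference between their responses (TC71 effect minus TC32 effect). This difference was called positive for 11 of the 34 genes, against 6.27% of all genes, and negative for 1, against 3.72%, with 9.99% of all genes called in either direction. The median difference was 0.17, against -0.02 for all genes. The 11 were DKK1, IGFBP3, LUM, TGFBI, TGFBR2, IGFBP5, TWIST1, CAV2, FN1, COL3A1 and ANXA1, and the 1 was FBN1. Only 2 differences, for DKK1 and IGFBP3, were at least 2-fold, where 0.774% of all genes were called that far up, and 0 that far down, against 0.521%. Both genes were treated as not expressed in TC71 (2.65 for DKK1 and 3.25 for IGFBP3 in controls), so a fall there could not have been measured. Without TC71 control replicate 1 the counts were 9 and 1 (4.82% and 2.66% of all genes). With beta-actin in the fit they were 7 and 1 (4.03% and 2.07%). Centring on housekeeping genes gave 12 and 1 (7.69% and 1.65% of all genes), and on hybridization controls 13 and 0 (12.8% and 0.961%).

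The 11 genes reached that result by different routes. DKK1 (difference 2.05 ± 0.18 SE, limma adjusted p = 3.47e-05) and IGFBP3 (1.24 ± 0.22, adjusted p = 0.00314) fell in TC32 and were not called in TC71. In TC71 DKK1 read 2.53, 2.51 and 2.89 with mithramycin and 2.43, 2.60 and 2.91 with solvent, near the lowest levels of the 34 genes. TGFBR2 (0.85 ± 0.13, adjusted p = 0.00131) and TWIST1 (0.48 ± 0.10, adjusted p = 0.00880) fell in both lines, further in TC32. TGFBI (0.92 ± 0.14, adjusted p = 0.00101) and CAV2 (0.47 ± 0.07, adjusted p = 0.00114) rose in TC71 and fell in TC32. TGFBR2 and TGFBI averaged under 6 in both TC71 groups, where the size of a change is rough. IGFBP5, LUM, FN1, COL3A1 and ANXA1 rose in TC71 and were not called in TC32. Of these, the differences of ANXA1 (adjusted p = 0.0401), COL3A1 and FN1 (both 0.0350) were each lost in at least 8 of the 12 fits that left out 1 array. FBN1 fell in TC71 and was not called in TC32 (difference -0.48 ± 0.11, adjusted p = 0.0180), at levels below 6 throughout.

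In both lines 3 of the 34 genes rose (SNAI2, COL6A3 and CDKN1C) and 2 fell (TWIST1 and TGFBR2), where 13.1% of all genes rose and 12.7% fell in both. COL6A3 and CDKN1C were under 6 in all groups. SNAI2 had log2 changes of 0.49 (TC71) and 0.41 (TC32), while TWIST1 had -0.73 (TC71) and -1.20 (TC32). These factors thus moved in opposite directions in each line, although SNAI2 averaged 5.05 with mithramycin and 4.64 with solvent in TC32, under 6. The SNAI2 call in TC32 was lost in 2 of the 12 fits that left out 1 array. Its call in TC71 was lost with beta-actin in the fit. In neither line were 11 genes called, namely LOX, THBS1, COL1A1, COL5A1, POSTN, CD44, VIM, ITGA5, MMP2, TAGLN and ACTA2, against 46.1% of all genes. Their changes lay between -0.18 and 0.26. The confidence intervals were widest for TAGLN, at -0.50 to 0.39 in TC71 and -0.58 to 0.31 in TC32. Smaller changes of that gene could not be seen with its brightest set. Another TAGLN set averaged 6.32 with mithramycin and 5.89 with solvent in TC32 (0.43, limma over all probe sets, adjusted p = 6.25e-04). The remaining TAGLN set showed -0.03. Of these 11, COL1A1 (7.47 ± 0.04 SD with mithramycin and 7.26 ± 0.08 with solvent in TC71) did not overlap between the TC71 groups and missed the threshold narrowly (limma adjusted p = 0.0507).

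**Figure D4:**
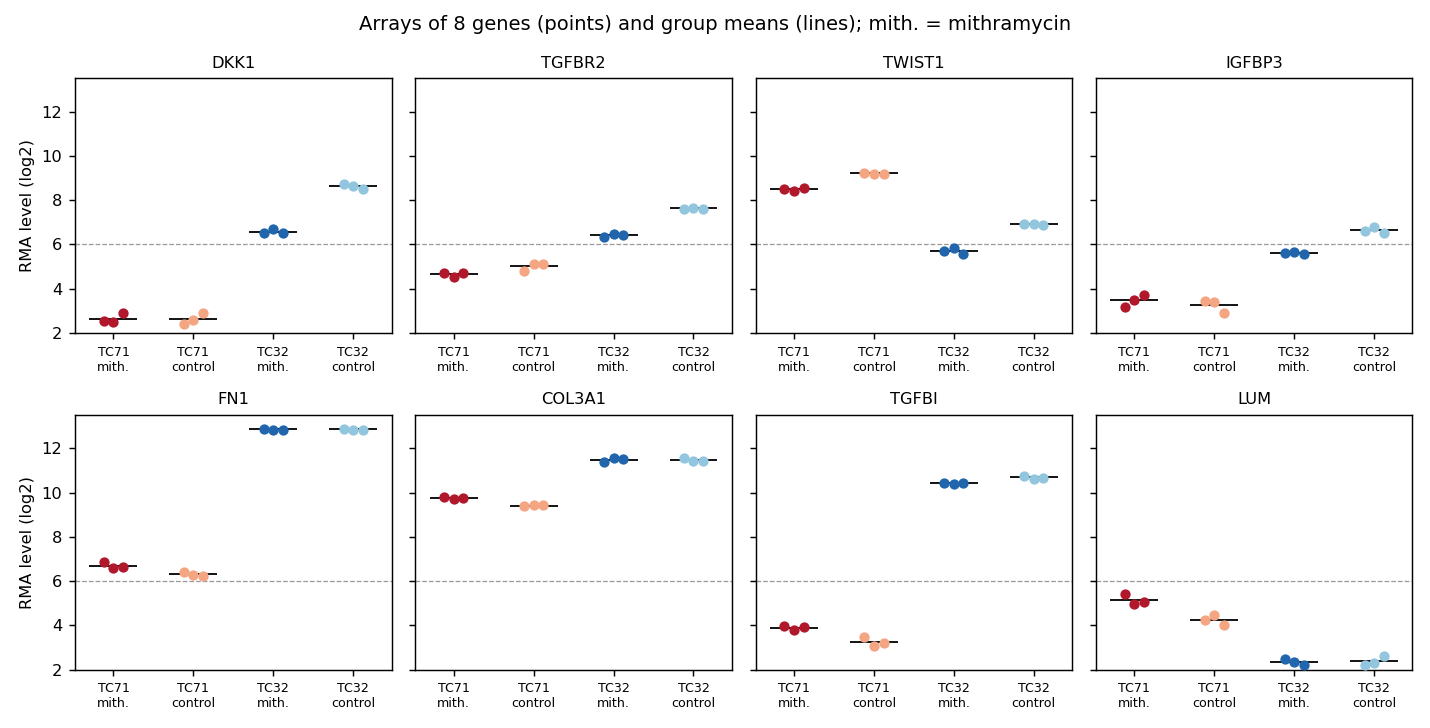
Log2 levels of 8 genes, a panel each; points are arrays, lines are group means, and the dashed line marks 6. Mithramycin and control do not overlap for DKK1 and IGFBP3 in TC32, for FN1, COL3A1 and LUM in TC71, and for TGFBR2, TWIST1 and TGFBI in both. In all 8 genes the controls of the lines differ by more than the treatment changed either line.

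Other probe sets of the same genes did not always follow the brightest one, and the place of each set within its gene is not known here. In TC32 a dimmer set of FN1 averaged 5.91 with mithramycin and 7.56 with solvent, a fall of 1.65 (limma over all probe sets, adjusted p = 1.17e-06), where the brightest set showed 0.00. It was the only 1 of the 7 FN1 sets that fell, and 3 other sets above 12 showed 0.03, 0.05 and -0.02. A dimmer set of TNC averaged 5.40 with mithramycin and 6.86 with solvent in TC32 (-1.46, adjusted p = 1.78e-07), while the third showed 0.08. One of VIM averaged 4.02 with mithramycin and 5.18 with solvent in TC32 (-1.16, adjusted p = 1.62e-06). The second set of ANXA1 averaged 7.87 with mithramycin and 8.33 with solvent in TC32 (-0.46, adjusted p = 0.00464). For these 4 genes the brightest and a dimmer set therefore gave different results in TC32. A dimmer COL3A1 set moved in opposite directions, by 0.73 in TC71 and by -0.93 in TC32, and 2 other sets of COL5A1 fell in TC32 by 0.64 and 0.55. CALD1 had 11 sets with changes in TC32 of -0.82 to 0.43, of which 3 fell and 1 rose. All 4 sets of TIMP3 fell in TC71, by 0.49 to 1.43, and its brightest set showed the smallest change. Both sets of IGFBP3 fell in TC32, while the second set of TGFBR2 (0.04) and of LUM (-0.08 in TC71) lay at 3.42 and 2.15 on average and was not called. With the mean of all sets, 10 of the 34 genes were called lower in TC32 and 6 higher (18.1% and 26.7% of all genes).

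Related genes outside the 34 were grouped by function in the same way. These lists, like the 34 genes, were chosen with earlier results of these data known. Their counts are therefore descriptions and not tests. Of the other mesenchymal transcription factors, 9 of 14 fell in TC71 and 11 of 14 in TC32, with 9 lower in both lines. Of all genes, 16.1% fell in TC71, 19.4% in TC32 and 12.7% in both. ZEB2, a zinc finger repressor related in function to SNAI2, fell by 1.44 ± 0.08 SE in TC71 and by 1.67 ± 0.08 in TC32. TEAD1, the DNA-binding partner of YAP, fell by 1.32 and 1.13 in TC71 and TC32. RUNX2, a bone lineage factor, fell by 0.91 in TC71 and 1.18 in TC32, and MRTFA, a coactivator of serum response factor, by 0.96 in TC71 and 0.85 in TC32 at levels under 6. Only SNAI1 rose in both lines. The median change of the 14 was -0.46 in TC71 and -0.76 in TC32, against 0.07 in TC71 and 0.08 in TC32 for all genes.

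Of the other TGF-beta ligands, receptors and SMADs, 7 of 15 fell and 1 rose in TC71, and 8 fell and 2 rose in TC32. Of all genes, 16.1% fell and 19.4% rose in TC71 and 19.4% fell and 25.6% rose in TC32, and these shares also stand beside the counts of the lists that follow. SMAD3, which carries the receptor signal to the nucleus, fell by 1.23 ± 0.09 SE in TC71 and by 1.05 ± 0.09 in TC32. The co-receptor gene TGFBR3 fell by 0.76 and 0.85 in TC71 and TC32, the receptor gene ACVR1 by 0.76 in TC71 and 0.67 in TC32, and the inhibitory SMAD7 by 0.73 in TC71 and 0.56 in TC32. Of 12 genes of the IGFBP and DKK families and the DKK receptors, 5 fell and 2 rose in TC71 and 4 fell and 3 rose in TC32. LRP6 and LRP5, the Wnt co-receptors that DKK1 binds, fell by 1.05 and 0.74 in TC71 and by 1.18 and 0.97 in TC32. DKK2 fell by 0.54 in TC71 and by 0.82 in TC32, and IGFBP6 rose by 0.27 in TC71 and 0.32 in TC32.

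Structural and matrix-processing genes gave both directions, with many counts near or below the shares of all genes (19.4% higher and 16.1% lower in TC71, 25.6% higher and 19.4% lower in TC32). Of 16 other collagens, 2 rose and 0 fell in TC71 and 3 rose and 4 fell in TC32, and 9 of the 16 were under 6 in all groups. COL6A1 rose in both lines, by 0.21 in TC71 and 0.27 in TC32. Of 23 other matrix glycoproteins and proteoglycans, 6 rose and 2 fell in TC71 and 3 rose and 3 fell in TC32, with SPOCK1 lower in both (-0.50 in TC71 and -0.70 in TC32). Of 17 matrix proteases and inhibitors, 5 rose and 3 fell in TC71 and 7 rose and 4 fell in TC32. The cysteine protease gene CTSK, a collagen-cutting cathepsin, rose by 0.72 ± 0.06 SE in TC71 and by 1.75 ± 0.06 in TC32, and CTSL by 0.62 in TC71 and 0.41 in TC32. ADAM17 and ADAM10, which shed surface proteins, fell by 0.30 and 0.31 in TC71 and by 0.35 and 0.27 in TC32. Among 16 genes of collagen modification 3 rose and 1 fell in each line. Of 14 integrins, 2 rose and 1 fell in TC71 and 3 rose and 2 fell in TC32, and of 12 contractile actin genes, 5 rose and 2 fell in TC71 and 3 rose and 3 fell in TC32.

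**Figure D5:**
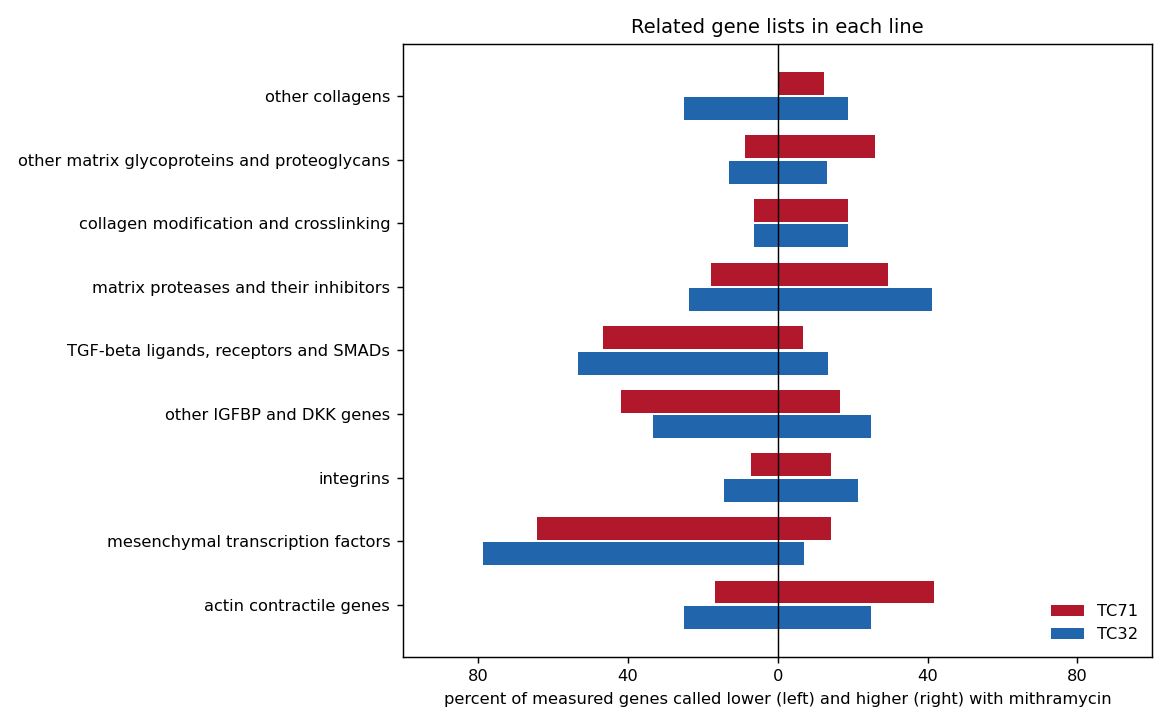
Percent of the measured genes of each related list that were called lower (left of 0) or higher (right of 0) with mithramycin, in TC71 (red) and TC32 (blue). The mesenchymal transcription factors reach furthest to the left in both lines, followed by the TGF-beta ligands, receptors and SMADs.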

How the data were processed

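Total RNA of 12 dishes was hybridized to 1-colour arrays, 1 array per dish. The deposited log2 values are one per probe set and array, and per the submitters' processing notes RMA made them (version not given in the sources used here). This method gives all arrays one distribution, so a shift common to most genes cannot be seen. Of 54675 probe sets, 41091 carried 1 gene symbol in the platform annotation, which gave 19775 genes, each read from its brightest set. Genes whose sets carry several symbols are not analysed here.

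limma 3.58.1 in R 4.3.3 fitted all 12 arrays with 1 mean per group and a shared spread, followed by eBayes. All adjusted p-values of genes are limma's with Benjamini-Hochberg adjustment over all 19775 genes, with a threshold of 0.05. Those of single probe sets were adjusted over the 41091 probe sets with 1 gene symbol. The fit was tested on simulated data. Tables were made with Python 3.11.15, pandas 2.3.3 and scipy 1.17.1. The members and the related lists were chosen with earlier results of these data known. All members are named. From each related list up to 4 genes called in the same direction in both lines, and up to 4 called between the control lines, are named in order of size, and genes outside that rule were chosen after their values were seen. The alternatives were other probe set choices, a filter at a mean of 6, a second quantile normalization, 2 centrings, a beta-actin covariate, another variance model, a replicate block and leaving out each array.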

Additional observations from a re-analysis of the deposited data

Results flagged for a closer look

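For 12 of the 34 genes the response to mithramycin differed between TC71 and TC32 in limma's test of that difference (TC71 effect minus TC32 effect, log2, n = 3 arrays a group, adjusted over all genes). The differences were 2.05 for DKK1, 1.24 for IGFBP3, 0.85 for TGFBR2 and 0.48 for TWIST1, genes that fell in TC32. TGFBI (0.92) and CAV2 (0.47) rose in TC71 and fell in TC32. LUM (0.96), IGFBP5 (0.56), FN1 (0.39), COL3A1 (0.33) and ANXA1 (0.23) rose in TC71 and were not called in TC32. FBN1 (-0.48) fell in TC71 and was not called in TC32. DKK1, IGFBP3, TGFBR2 and TGFBI averaged under 6 in both TC71 groups, LUM and FBN1 in all groups, so a response there could not be measured fully. Of the 12 differences, 5 were kept in every setting in which the gene was tested (DKK1, IGFBP3, TGFBI, TGFBR2 and TWIST1).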

How the results depend on the processing

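Of 69 calls on the 34 genes, 56 were kept whichever single array was left out, and 36 in every setting in which the gene was tested. The 36 include DKK1, IGFBP3, TGFBR2 and TWIST1 in TC32, and ANXA1, COL3A1, IGFBP5, TGFBI and TWIST1 in TC71, and the differences of DKK1, IGFBP3, TGFBI, TGFBR2 and TWIST1. Leaving out 1 array gave 11 to 14 genes higher and 3 to 5 lower in TC71, and 3 to 5 higher and 5 to 8 lower in TC32. The difference of responses was then called positive for 8 to 10 and negative for 1 to 2, and the control lines gave 6 higher and 20 to 22 lower. In TC32, 5 genes fell without mithramycin replicate 1, mithramycin replicate 3 or control replicate 3. In TC71, 3 fell without TC32 control replicate 1, TC71 mithramycin replicates 2 or 3, or any TC71 control. Without TC32 mithramycin replicate 2 or TC32 control replicate 2 the negative differences numbered 2.

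The filter on mean level, at 6, left 18 of the 34 genes to test. In TC32 1 was then higher and 4 lower, 2 negative differences were called, and 12 were lower in TC71 controls. Centring on hybridization controls left 1 gene higher in TC32, 2 lower in TC71 and 0 negative differences. The beta-actin covariate left 8 higher and 3 lower in TC71 and 7 positive differences. A second quantile normalization, and the trend and robust variance model, each gave 2 negative differences. Without the _x_at and _s_at sets 28 of the 34 genes could be tested. In that setting 3 genes were lower in TC71, 0 differences were negative and 3 genes were higher in TC71 controls, where COL1A1 and TIMP3 were not tested and LUM lost its call. That setting also turned LUM to -0.08 in TC71, the LUM difference to -0.14 and the FBN1 difference to 0.15, each read from another set. Other causes were not tested.

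Same-numbered arrays had correlations of deviations of -0.0709, -0.0191 and -0.0118 in TC71 and 0.0819, 0.236 and 0.0402 in TC32, so the numbers were not taken to pair samples. With the replicate block 13 genes were higher and 4 lower in TC71 (18.7% and 15.7% of all genes). In TC32 there were 4 higher and 7 lower (25.3% and 19.0%). The difference was called positive for 9 and negative for 1 (4.96% and 2.99%). In TC71 controls 6 were higher and 20 lower (26.6% and 24.6%). At low signal the size of a change is limited by background, and 12 of the 34 genes were under 6 throughout.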

Other observations

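The solvent controls of the lines also differed in related genes outside the 34. The basement membrane collagen genes COL4A1 and COL4A2 were lower in TC71 controls than in TC32 controls by -4.61 and -5.25 (log2), and the fibrillar COL11A1 by -5.90, whereas COL21A1 was higher by 4.05. LOXL1, a crosslinking enzyme gene, was lower by -5.54, and PLOD2, which encodes a lysyl hydroxylase of collagen, was higher by 5.36. The small proteoglycan gene DCN (4.01), MFAP4 (4.16) and the integrin gene ITGA4 (4.67) were higher in TC71 controls, while TIMP2 (-3.52), LAMA4 (-3.29) and ITGB5 (-3.09) were lower.

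Of 12 other genes of the contractile actin system, 10 were lower and 1 higher in TC71 controls, with a median of -0.87, against 24.8% and 26.7% of all genes. TPM1, a tropomyosin gene, was lower by -2.77 and VCL, the vinculin gene, by -1.45. TWIST2, a relative of TWIST1, was lower by -4.01 in TC71 controls, opposite to TWIST1, and fell by 1.61 ± 0.17 SE with mithramycin in TC32 (limma adjusted p = 9.51e-06). In TC71 it lay near 3 and was not called (0.05), and the responses differed by 1.66.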
